A study of Mus musculus with 4 samples.

Results

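The borders described here are the ends of topologically associating domains (TADs) that were present in 3D-cultured AML12 cells and had no counterpart in the 2D-cultured cells. They were chosen by their position alone: a distinct autosomal start or end of a 3D TAD was taken when no start or end of a 2D TAD lay within 40 kb, which is 1 bin of the contact maps. This selection gave 562 of 5189 autosomal 3D borders, or 10.8% (95% Wilson interval 10.0 to 11.7%). Of these, 292 lay inside a 2D TAD and 270 lay in sequence that belonged to no 2D TAD, and most results are given for each kind. The inside share of 52.0% depended on the definition of a border. It was 66.4% when only the same position counted as shared and 62.9% when 80 kb was allowed. It was 29.7% over positions where TADs meet in each list, and 29.7% over TADs of at least 200 kb. The settings with 29.7% filter the 2D list too. They also count borders whose 2D match was removed, and a border on a removed 2D end counts as outside. The distance to a 2D border, the 2D TAD or stretch around a border and the inside or outside position were used in the choice and are given as descriptions.

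AML12 is an immortalized mouse hepatocyte line, and its cells were grown either in dishes (2D) or embedded in Matrigel (3D). In situ Hi-C was performed on 2 samples of each culture. Cells of both cultures had been held at the G1/S boundary with 1 mM hydroxyurea, for 24 h in 2D and 36 h in 3D, so that the time in the drug differed together with the culture. The authors combined the replicates before calling TADs, so there is 1 list of TADs per culture, with no score, no read count and no spread between replicates. The depth behind a border is therefore unknown, no difference between sets of borders was tested, and intervals cover counting error only.

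TADs are stretches of chromatin whose loci contact each other more often than they contact loci beyond the border. In mammalian cells the cohesin complex extrudes chromatin loops and is halted by the zinc finger protein CTCF bound to its motif, and many borders carry CTCF sites. Borders are also known to lie often near the promoters of active genes. Sequence that the caller places in no TAD is called unassigned below.

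The sequences nearest to several named borders are shown because CTCF motifs and promoters are the features most often described at borders. Each of the following 7 stretches holds the match to the CTCF consensus nearest to a 3D-only border, within 20 kb. They are given 5′ to 3′ on the strand of the match, from GRCm38.p6, and the capitals mark the match of 12 letters. The first 4 borders lay outside all 2D TADs and were those with a match among the 6 outside borders farthest from a 2D border. The Il12a border, at 240 kb, was tied with other outside borders at that distance, and the first in genome order was taken. None of the 6 inside borders farthest from a 2D border had a match within 20 kb. The last 3 stretches belong to inside borders named for other reasons, which were a 2D TAD with most 3D-only borders, the most gene starts and a close gene start.
chr14:25879268-25879319, minus strand, Anxa11 border: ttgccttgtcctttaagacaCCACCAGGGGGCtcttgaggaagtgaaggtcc
chr6:34041031-34041082, minus strand, Lrguk border: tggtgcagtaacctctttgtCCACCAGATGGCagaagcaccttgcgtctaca
chr14:45548281-45548332, minus strand, Fermt2 border: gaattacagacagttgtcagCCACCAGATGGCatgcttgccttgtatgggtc
chr3:68717511-68717562, plus strand, Il12a border: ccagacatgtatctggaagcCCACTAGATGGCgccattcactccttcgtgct
chr15:44364112-44364163, plus strand, border at 44360000: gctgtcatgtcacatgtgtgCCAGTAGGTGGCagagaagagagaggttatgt
chr2:25228483-25228534, minus strand, Rnf208 border: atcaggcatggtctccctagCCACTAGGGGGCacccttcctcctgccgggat
chr11:95117116-95117167, plus strand, Dlx3 border: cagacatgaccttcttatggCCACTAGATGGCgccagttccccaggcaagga

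The match lay 0.707 kb from the Anxa11 border, 1.06 kb from the Lrguk border, 2.46 kb from the Il12a border, 2.86 kb from the Dlx3 border and 4.14 kb from the border at chr15:44360000, which had no coding gene start within 40 kb. At the Rnf208 and Fermt2 borders it lay 11.5 and 11.7 kb away. The positions are finer than the grid of 40 kb on which the borders were called, so the distances describe the grid line and not a measured edge. A match says nothing about whether CTCF was bound there.

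Promoters are shown for the 2 genes whose starts lay closest to a 3D-only border. Dcaf11, a substrate receptor of cullin-4 ubiquitin ligases, started 6 bases from the border at chr14:55560000, outside all 2D TADs. Cand1, which exchanges the substrate receptors of cullin ligases, started 55 bases from the border at chr10:119240000, inside a 2D TAD. Both windows are the 300 bases around the RefSeq start in GRCm38.p6, most of them upstream of it, and the capitals mark each CG.
Dcaf11, chr14:55559779-55560078, plus strand: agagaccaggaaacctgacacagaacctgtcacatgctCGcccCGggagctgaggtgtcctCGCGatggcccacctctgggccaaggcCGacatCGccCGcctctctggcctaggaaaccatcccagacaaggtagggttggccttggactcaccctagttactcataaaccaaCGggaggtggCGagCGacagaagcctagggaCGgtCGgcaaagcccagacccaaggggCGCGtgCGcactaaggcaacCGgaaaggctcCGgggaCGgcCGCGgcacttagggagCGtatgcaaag
Cand1, chr10:119240006-119240305, minus strand: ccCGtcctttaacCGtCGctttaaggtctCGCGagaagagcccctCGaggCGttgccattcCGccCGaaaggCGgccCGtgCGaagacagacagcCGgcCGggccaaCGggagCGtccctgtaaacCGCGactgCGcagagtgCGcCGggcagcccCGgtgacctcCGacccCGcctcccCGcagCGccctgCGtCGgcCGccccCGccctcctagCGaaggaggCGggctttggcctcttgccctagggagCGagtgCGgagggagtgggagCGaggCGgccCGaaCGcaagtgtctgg

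The Dcaf11 window held 21 CG and the Cand1 window 38, where the median over 31396 autosomal promoter windows was 7. As many CG as in Cand1 were present in 5.12% of all windows, and as many as in Dcaf11 in 25.4%. Neither window held the CTCF consensus on either strand, which 0.573% of all windows did. Of the 10 genes that started nearest to a 3D-only border, 5 had a promoter window in the RefSeq table.

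Most 3D-only borders were near the limit of the selection. The nearest 2D border was 80 kb away, the smallest distance the grid allows, for 287 of the 562, 120 kb away for 89 and 160 kb away for 52. At 80 kb there were 119 inside and 168 outside borders. Just outside the limit, 937 3D borders had their nearest 2D border at exactly 40 kb, and 3690 had one at the same position. A coding gene started within 40 kb of 73.9% of the borders at 80 kb (60.5% inside, 83.3% outside) and of 73.0% of those at 40 kb. Distances over 400 kb occurred at 38 borders, all of them inside a 2D TAD.

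The selection required at least 160 kb of 2D TAD or unassigned stretch around a border, so small ones could not hold any. Counted once per border, the 2D TADs around the 292 inside borders measured 960 kb at the median (95% interval 720 to 1080 kb). A 2D TAD with more than 1 such border is repeated here, and the interval takes the repeats as independent. All 2D TADs, including those too small to hold such a border, had a median of 240 kb. With only the same position counted as shared, the median around the inside borders was 400 kb. A larger TAD offers more positions over 40 kb from its ends, so sizes were also set against the number of such eligible grid positions. Of the 2D TADs from 160 to under 400 kb, 3.17% held a 3D-only border, of those from 400 to under 1000 kb 8.77%, of those from 1000 to under 2000 kb 18.4% and of those of 2000 kb or more 15.7%. Per 100 eligible positions the number of borders fell with size throughout, from 1.26 through 1.03 and 0.840 to 0.263. The unassigned stretches around 269 of the 270 outside borders, those bounded by 2D TADs on both sides, had a median of 320 kb. Of the stretches of 400 kb or more 63.6% held a 3D-only border, compared with 20.1% of those from 160 to under 200 kb. Per 100 eligible positions the number again fell with size, with 20.1 borders in the smallest stretches and 7.32 in those of 400 kb or more.

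Eligible positions were far more often borders outside than inside 2D TADs. Inside, 292 of 41433 eligible positions were 3D-only borders, or 0.705% (0.629 to 0.790%). Outside, 270 of 2323 were, or 11.6% (10.4 to 13%). The classes come from the selection and differ in the size of the TAD or stretch around a border. Positions of the same TAD or stretch are not independent, so the contrast is a description and was not tested. The inside borders were spread over 228 2D TADs, of which 183 held 1, 31 held 2, 11 held 3, 1 held 4 and 2 held 5. Of the 270 outside borders, 269 fell into 216 stretches bounded by 2D TADs on both sides, of which 173 held 1. The remaining outside border lay in no such stretch.

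A border that faces unassigned sequence has a single neighbouring 3D TAD. This was the case for 217 of the 270 outside borders (80.4%), 156 of the 292 inside ones (53.4%) and 39.3% of the 3D borders shared with 2D. Sizes are therefore given over the distinct 3D TADs beside a set of borders, each counted once. The median size of the 285 beside outside borders was 200 kb, with a 95% interval from 200 to 240 kb. For the 381 beside inside borders it was 400 kb, with an interval from 320 to 520 kb. The median was 280 kb beside the shared borders and over all 3D TADs. Of the TADs beside outside borders 43.9% (38.2 to 49.7%) were under 200 kb, compared with 24.4% (20.4 to 29.0%) beside inside borders, 30.1% beside shared borders and 30.5% of all 3D TADs. The smallest size in the lists, 120 kb, was the size of 81 of the 285 beside outside borders, 57 of the 381 beside inside borders and 680 of the 4005 beside shared borders.

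**Figure D1:**
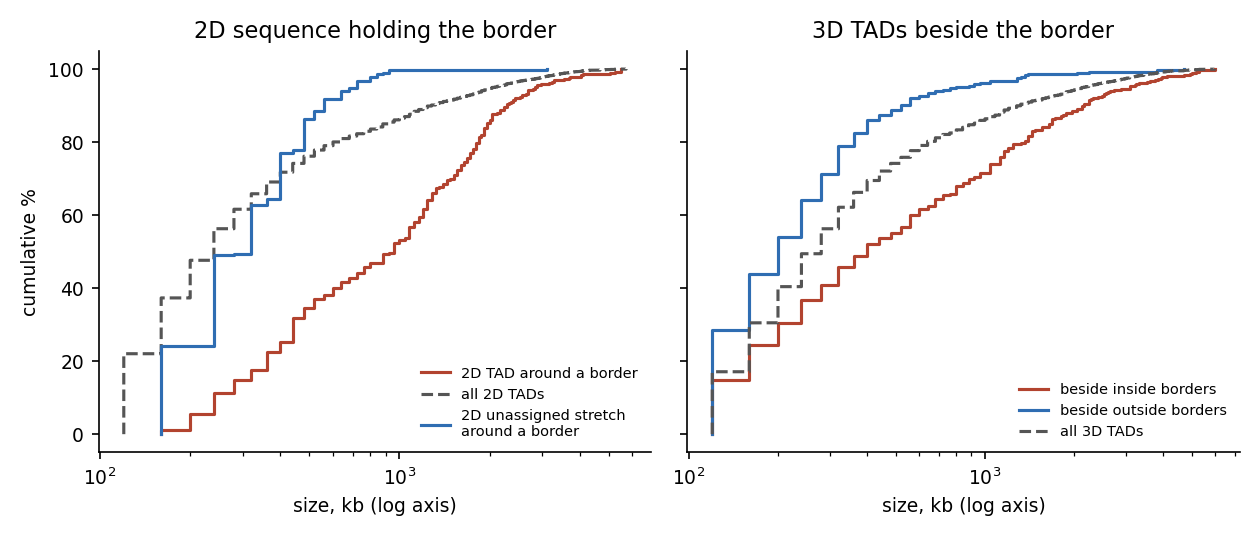
Cumulative percent of sizes in kb on a log axis, with all TADs of the list dashed. The left panel shows the 2D TAD or unassigned stretch that holds a 3D-only border, counted once per border. The right panel shows each distinct 3D TAD beside such a border. The 2D TADs around inside borders lie to the right of all 2D TADs, with medians of 960 and 240 kb, and the 3D TADs beside outside borders lie to the left of all 3D TADs, with medians of 200 and 280 kb.

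Adjacent 3D TADs met at 33.6% of the 3D-only borders. This share depended on the definition, and was 49.5% when only the same position counted as shared and 51.3% when 80 kb was allowed. It was 18.4% over TADs of at least 200 kb. That setting removes shorter TADs from both lists, so a border beside a removed 3D TAD no longer counts as meeting. It also adds borders whose 2D match was removed. In the main definition they met at 136 of the 292 inside borders (46.6%) and at 53 of the 270 outside borders (19.6%), compared with 60.7% of the shared 3D borders. The others faced 3D unassigned sequence on 1 side. Of the 1076 3D unassigned stretches, 40 (3.72%) had a 3D-only border at both ends, and 19 of these lay within a single 2D TAD. Of the 284 3D TADs beside an outside border in a stretch bounded by 2D TADs on both sides, 115 lay wholly within the 2D unassigned stretch and 42 had a 3D-only border at both ends.

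Both ends of the 2D TAD were kept in 3D, within 40 kb, in 123 of the 228 2D TADs that held a 3D-only border. In 47 of the 228 the change was a simple division, with both ends kept and a single new border at which adjacent 3D TADs met. These 47 had a median size of 1160 kb in 2D, and the smaller piece took a median of 30.8% of the 2D TAD (range 2.38 to 50%). The largest was the 2D TAD at chr2:85120001-90160000, which was divided into 3D TADs of 120 and 4920 kb. A coding gene started within 40 kb of 23 of the 47 dividing borders.

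Coding genes started close to most outside borders and close to about as many inside borders as not. A start lay within 40 kb of 220 of the 270 outside borders, or 81.5% (76.4 to 85.7%), and of 149 of the 292 inside borders, or 51.0% (45.3 to 56.7%). Over both classes the share was 65.7% (61.6 to 69.5%). The value was 74.6% at the shared 3D borders and 64.2% at the 1005 2D borders with no 3D border within 40 kb. The difference of -8.95 percentage points between all 3D-only and shared 3D borders turned to 5.08 over positions where TADs meet, and to 1.10 over TADs of at least 200 kb. Both settings filter the 2D list too, so they also count as 3D-only the borders whose 2D match was removed. The eligible positions give the level of the surrounding sequence, which was 65.9% outside and 23.6% inside 2D TADs. Averaged over the TAD or stretch around each border, the eligible positions had a start within 40 kb in 77.7% outside and 39.7% inside, so the members lay 3.77 and 11.3 percentage points above the positions of their own surroundings.

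**Figure D2:**
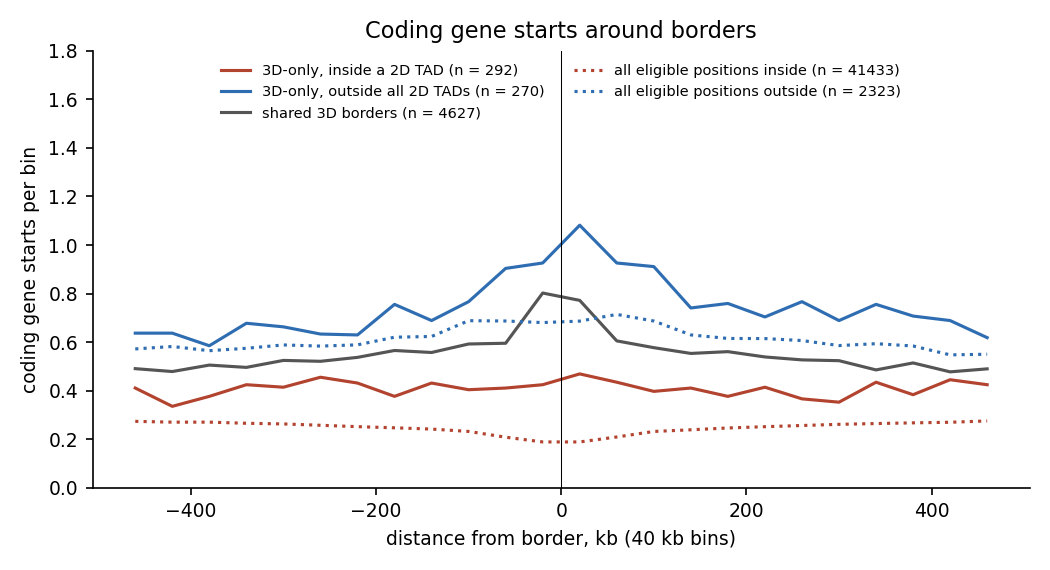
Mean number of coding gene starts per 40 kb bin against the distance from the border in kb, for 3D-only borders, shared 3D borders and all eligible grid positions (dotted). At the bins next to the border the outside borders had 0.926 and 1.08 starts and the inside borders 0.425 and 0.469, and the inside curve has no clear peak.

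The neighbourhoods differed over a wider range as well. The median number of coding gene starts within 500 kb was 15 around the outside borders, 7 around the inside ones and 11 around the shared borders. The median distance to the nearest coding start was 10.1 kb outside, 36.5 kb inside and 16.7 kb at shared borders. Eligible positions had medians of 13 starts within 500 kb outside and 3 inside 2D TADs. Their median distances to the nearest coding start were 22.2 and 135 kb. No coding gene started within 500 kb of 11 inside borders and 1 outside border. Among the inside borders the share with a start within 40 kb was 60.5% at 80 kb from a 2D border, 53.6% at 120 to 160 kb and 38.5% (29.7 to 48.1%) at 200 kb or more. Among the outside borders these values were 83.3%, 76.4% and 83.3% (66.4 to 92.7%), the last over 30 borders.

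The sequence within 20 kb of the borders was richer in GC and CG at the outside borders than at the inside ones. The median GC content was 44.2% at the outside borders, 41.6% at the inside ones and 44.1% at the shared ones. CG dinucleotides had medians of 11.4, 8.41 and 11.1 per kb in the same order. Sites of MboI, the enzyme used to cut the chromatin (GATC on either strand), numbered 99.0, 101 and 96.8 per 40 kb window on average. Eligible positions had the same contrast, with median GC of 42.6% outside and 40.2% inside 2D TADs and medians of 8.85 and 6.7 CG per kb. Unknown bases were present in the windows of 7 of the 270 outside borders and no inside border. They were present at 147 of 2323 eligible positions outside, at 70 of 41433 inside and at 65 of 4627 shared 3D borders. The part of base composition and mapping in the calls was not tested.

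The CTCF consensus was found within 20 kb of 84 outside borders, or 31.1% (25.9 to 36.9%), and of 82 inside borders, or 28.1% (23.2 to 33.5%). It was found at 37.4% of the shared 3D borders (36.0 to 38.8%), 30.8% of the 2D-only borders and 17.0% of all 59934 grid positions. Eligible positions had it in 21.4% outside and 11.7% inside 2D TADs. Both classes of 3D-only borders were thus above their eligible positions pooled over all 2D TADs or stretches. Unlike for gene starts, the consensus was not compared with positions of the same 2D TAD or stretch. The interval of the inside borders lay below that of the shared borders, and that of the outside borders overlapped it.

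**Figure D3:**
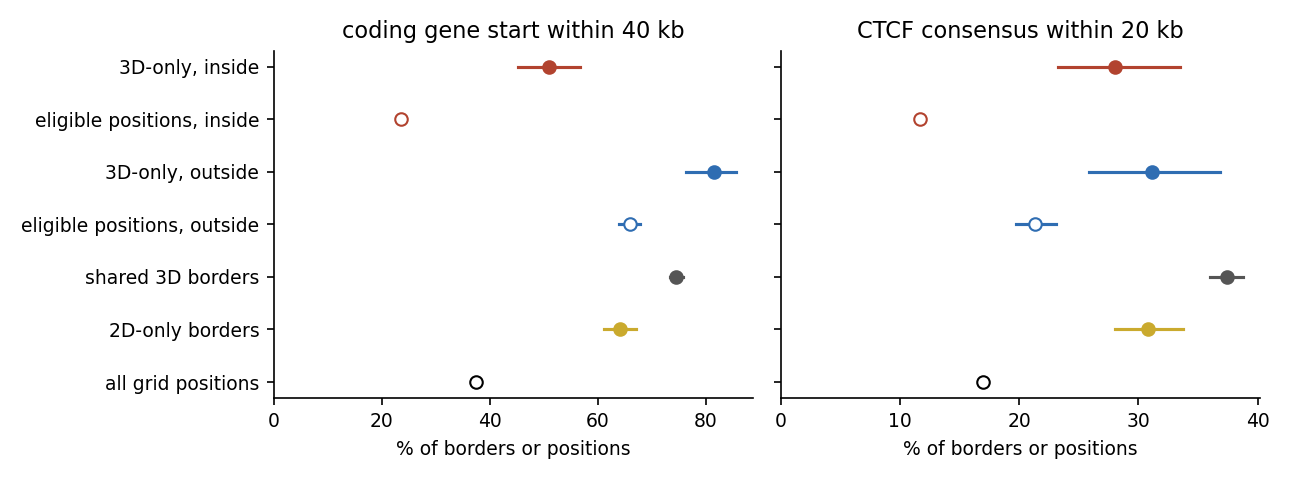
Percent of borders (filled) or grid positions (open) with a coding gene start within 40 kb (left) and with the CTCF consensus within 20 kb (right), with 95% Wilson intervals as lines. Inside borders stand at 51.0 and 28.1% and their eligible positions at 23.6 and 11.7%, and outside borders at 81.5 and 31.1% and theirs at 65.9 and 21.4%.

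Along the chromosomes, the share of 3D borders without a 2D counterpart was higher toward the start of the sequence, where the centromere of mouse autosomes lies. It was 14.1% (12.4 to 15.9%) in the third of each chromosome nearest the start, 11% in the middle and 8.10% (6.97 to 9.41%) in the last. Inside borders made up 7.26, 5.65 and 4.31% of the 3D borders in these parts and outside borders 6.80, 5.36 and 3.79%. Within 5 Mb of the first TAD of a chromosome 34 of 213 3D borders were 3D-only, and within 5 Mb of the last 20 of 239 were.

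By chromosome the share was highest on chromosome 14, with 43 of 257 borders or 16.7% (12.7 to 21.8%), and lowest on chromosome 12, with 17 of 229 or 7.42% (4.69 to 11.6%). The intervals of these chromosomes did not overlap, but they were picked as the extremes of 19. The inside share of the 3D-only borders was lowest on chromosome 7, with 12 of 39 (30.8%, 18.6 to 46.4%), and highest on chromosome 10, with 21 of 29 (72.4%, 54.3 to 85.3%), again picked as the extremes of 19.

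**Figure D4:**
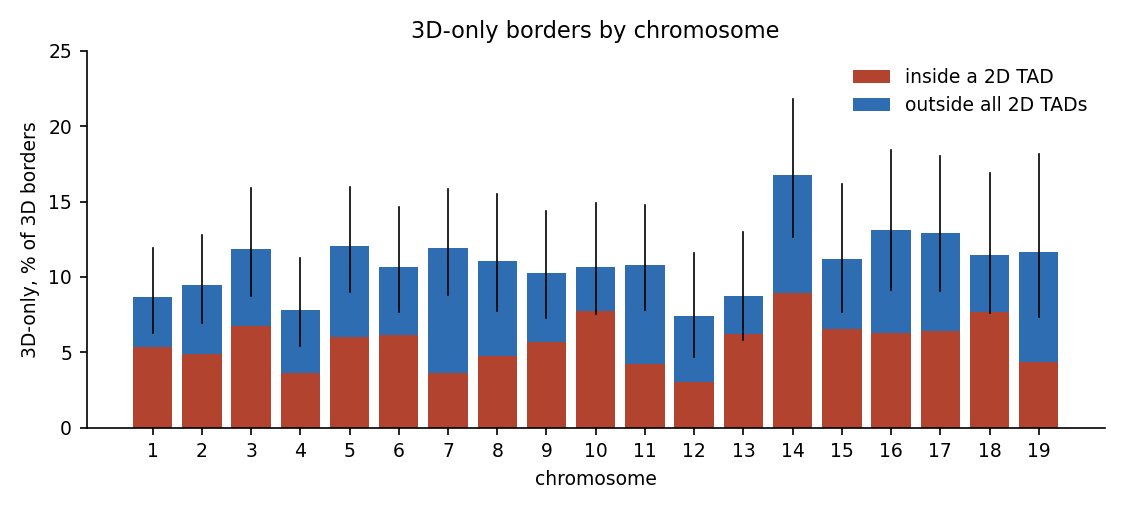
Percent of the 3D borders of each autosome that were 3D-only, stacked as inside a 2D TAD and outside all 2D TADs, with the 95% Wilson interval of the total as a line. The total ranges from 7.42% on chromosome 12 to 16.7% on chromosome 14, and most intervals overlap.

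Another 3D-only border lay within 200 kb of 164 of the 562 (29.2%) and within 1000 kb of 327 (58.2%). Within 200 kb this was 25.7% of the inside and 33.0% of the outside borders. For the more numerous 2D-only borders, another of their kind lay within 200 kb of 35.9% and within 1000 kb of 73.4%. These shares rise with the number of borders in a set, and the difference was not tested. Consecutive 3D borders that were all 3D-only formed 338 runs of 1, 69 of 2, 21 of 3, 3 of 4, 1 of 5 and 1 of 6. The run of 6 covered 5920 kb on chromosome 15, from 43800000 to 49720000. Neighbouring borders are often the ends of the same 3D TAD and are not independent.

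Of the 6 inside borders farthest from any 2D border, 5 had no coding gene start within 40 kb. Inside the 2D TAD at chr1:144360001-149840000, of 5480 kb, 3D borders at 147480000 and 147600000 lay 2360 and 2240 kb from the nearest 2D border and enclosed a short unassigned stretch between 3D TADs of 3080 and 2240 kb. No coding gene started within 40 kb of either, and the nearest start, that of Brinp3, was 985240 bases from the first. At chr8:89840000 a 2D TAD of 2040 kb was divided into 3D TADs of 1120 and 960 kb, and the nearest start was that of the transcription factor gene Tox3, 508343 bases away. At chr15:49720000, 920 kb from a 2D border, the nearest start was that of Csmd3, 927937 bases away. The other was the Cand1 border at chr10:119240000, 880 kb from a 2D border, where a 3D TAD of 920 kb began next to the promoter shown above. The border at chr18:86520000 divided a 2D TAD of 3680 kb into 1440 and 2240 kb, and its nearest start, that of Neto1, was 125048 bases away.

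Of the 6 outside borders farthest from a 2D border, 5 had a coding gene start within 40 kb. The border at chr14:25880000, 400 kb from any 2D border, ended a 3D TAD of 200 kb inside Anxa11, which encodes an annexin, and Plac9a started 23100 bases away. The border at chr6:30720000 lay 3547 bases from the start of Mest, an imprinted gene expressed from the paternal allele, with the centrosomal gene Cep41 also starting within 40 kb. The border at chr6:34040000 lay within Lrguk and ended a 3D TAD of 800 kb. At chr14:45560000, near Fermt2, which encodes the integrin activator kindlin-2, 3D TADs of 160 and 240 kb met. The border at chr10:44840000 had no coding start within 40 kb, and its nearest was that of the prolyl endopeptidase gene Prep, 227203 bases away. The border at chr3:68720000, the first in genome order of those tied at 240 kb, lay 29356 bases from the start of Il12a, a subunit gene of interleukin 12.

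Among 2D TADs, 2 held 5 3D-only borders each. The 2D TAD at chr10:4400001-5480000, of 1080 kb, kept both ends in 3D within 40 kb and held borders at 4680000, 4840000, 5000000, 5160000 and 5320000, which bounded 3 3D TADs of 160 kb each. The first 3 of these borders lay inside Esr1, which encodes oestrogen receptor alpha, and the last 2 inside Syne1, which encodes the nuclear envelope protein nesprin-1. The 2D TAD at chr15:42960001-44800000, of 1840 kb, was divided into 3D TADs of 840, 560 and 200 kb and the beginning of a 3D TAD of 5000 kb. Eny2, Nudcd1 and Pkhd1l1 started within 40 kb of its border at 44440000 and Ebag9 within 40 kb of that at 44640000.

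Among 2D unassigned stretches, 2 held 4 such borders each. The stretch at chr3:68480001-69200000 held 2 3D TADs of 160 kb, whose 4 ends were all 3D-only, with Il12a and the importin gene Kpna4 starting within 40 kb of 2 of them. The stretch at chr7:27560001-28120000 lies in a cluster of zinc finger genes. Zfp60, Zfp607b, Zfp59, Zfp626, Zfp780b, Zfp974 and Zfp850 started within 40 kb of its borders, together with Fcgbp and the proteasome gene Psmc4. These genes are similar to each other in sequence, and the part of read mapping in these borders was not tested.

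**Figure D5:**
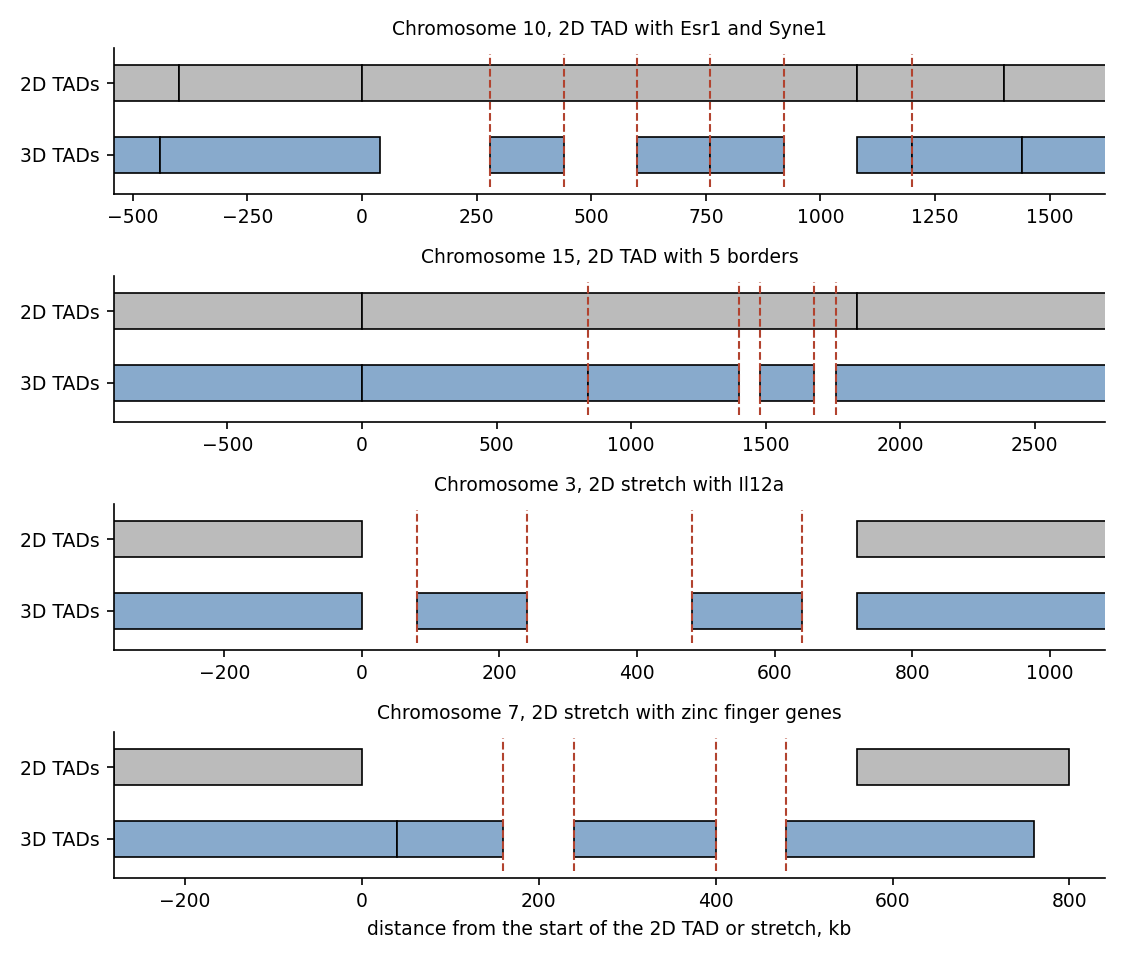
TADs of both cultures (bars) around the 2D TADs and 2D unassigned stretches that held most 3D-only borders, against the distance in kb from the start of the 2D TAD or stretch, with 3D-only borders as dashed lines. The upper 2 maps hold 5 such borders within a single 2D TAD and the lower 2 hold 4 in sequence outside all 2D TADs. A further line in the first map lies in the 2D TAD that follows.

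Other borders stood out by their surroundings. At chr3:45080000 the longest pair of 3D TADs met, of 3320 and 5280 kb, and the nearest start was that of the protocadherin gene Pcdh10, 298398 bases away. The border at chr2:25240000 had the most coding starts within 40 kb, 15 in number, among them Anapc2 of the anaphase-promoting complex, Nelfb of the negative elongation factor and the tubulin gene Tubb4b. The genes that started nearest to a 3D-only border after Dcaf11 and Cand1 were Defb2 at 74 bases, Crbn, which encodes cereblon, at 77, Stau2 at 112, the homeobox gene Dlx3 at 119, Anxa7 at 133, Lin37 at 162, Csrp2 at 211 and Bmp1 at 234.

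Some borders fell within long genes. Coding genes over 300 kb were crossed by 30 of the 292 inside borders (10.3%, 7.29 to 14.3%) and 5 of the 270 outside ones (1.85%, 0.794 to 4.26%). The eligible positions crossed such genes in 16.6% inside and 1.85% outside 2D TADs, and the shared 3D borders in 4.19%. Magi1, a scaffold gene of cell junctions, of 608 kb, and Esr1, of 394 kb, were each crossed by 3. Syne1, Ank2, which encodes an ankyrin, and Stk3, a kinase gene of the Hippo pathway, were each crossed by 2. Iqschfp, of 734 kb, was crossed by 1 inside and 1 outside border. The longest genes crossed were Rbfox1 (1526 kb), Opcml (1135 kb) and Nckap5 (917 kb) at inside borders, and Fgfr2 (2961 kb as annotated) and Nrg1 (1069 kb) at outside ones. Any coding gene was crossed by 43.5% of the inside borders and 62.6% of the outside ones, compared with 55.8% of the shared borders and 35.6 and 41.9% of eligible positions inside and outside.

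Of all 20807 autosomal coding genes, 803 (3.86%) started within 40 kb of a 3D-only border, 542 near an outside one and 261 near an inside one. None of 25 genes for hepatocyte transcription factors and none of 71 genes of the cell cycle and replication did. Of 69 genes for secreted plasma proteins 3 did (4.35%), Itih1 and Itih3, which encode heavy chains of the inter-alpha-trypsin inhibitor, and Hamp, which encodes the iron hormone hepcidin. Of 72 genes of drug and bile metabolism 4 did (5.56%), the glutathione transferase genes Gsta1 and Gsta4, the glucuronosyltransferase gene Ugt2b5 and Baat, which encodes the enzyme that conjugates bile acids. Of 63 genes of intermediary metabolism 3 did (4.76%), Pck2, which encodes mitochondrial phosphoenolpyruvate carboxykinase, and Hadha and Hadhb, which encode the mitochondrial trifunctional protein.

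Of 66 genes of chromatin architecture and the nuclear envelope 3 did (4.55%), the condensin gene Ncapg, the gene Banf1 of the barrier-to-autointegration factor and Cbx3, which encodes a heterochromatin protein. Of 96 genes of the extracellular matrix, adhesion and cytoskeleton 1 did (1.04%), the talin gene Tln1. The counts of all 7 lists rest on few genes and were not tested against the share over all coding genes. Within 40 kb of any 3D border started 20% of the hepatocyte transcription factor genes and 57.7% of those of the cell cycle and replication. The share over all coding genes was 38.9%. The Baat border lay inside a 2D TAD of 1080 kb, where 3D TADs of 160 and 120 kb met 13.4 kb from the gene start. The Ugt2b5 border lay inside a 2D TAD of 1720 kb, where 3D TADs of 320 and 1360 kb met 19.7 kb from the gene start. The Hamp border ended a 3D TAD of 160 kb in a 2D unassigned stretch of 320 kb, 24.0 kb from the gene start. Gsta1 and Gsta4 shared a border, as did Hadha and Hadhb and Itih1 and Itih3, so the genes of a list are not independent. The starts of Hadha, Hadhb, Itih3 and Tln1 also lay 42.7 to 44.8 kb from a 2D border, just past the 40 kb limit. For the other named list genes this distance was 60.3 kb or more.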

How the data were processed

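In situ Hi-C was performed on 4 samples of AML12 cells. Bowtie 2 (version 2.2.9, per the submitters' processing notes) was used by the authors for alignment to mm10. They filtered the pairs, combined the replicates, applied ICE to matrices of 40 kb bins, scaled each chromosome to equal contacts between 2D and 3D, and called TADs with Armatus. The deposited values are start and end positions in bp of mm10, with no depth, in 1 list per culture.

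Borders were distinct starts and ends, computed in Python (3.11.15) with scipy (1.17.1) for intervals. Coding gene starts came from GENCODE M21, and base composition, repeats, GATC sites and CTCF consensus matches on both strands from GRCm38.p6, the same build. Eligible positions are points of the 40 kb grid over 40 kb from a 2D border. Shares carry 95% Wilson intervals. Matching was tested on simulated lists. Named were the 6 borders of each class farthest from a 2D border, the 2D TADs and stretches with most borders, the longest flanks, the most gene starts, the 10 nearest starts, list genes and coding genes over 300 kb. The members and lists were chosen with earlier results of these data known. Contact matrices and expression were not analysed here.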

Additional observations from a re-analysis of the deposited data

How the results depend on the processing

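There is 1 list per culture, so leaving out a replicate was not possible. No paired analysis was possible because the replicates were combined before TADs were called. The number of 3D-only borders was 1499 (28.9% of 3D borders) when only the same position counted as shared and 275 (5.30%) when 80 kb was allowed. It was 915 (30.5%) over positions where TADs meet, 781 (18.5%) over TADs of at least 200 kb and 660 (11.9%) with chromosome X. The filters for meeting TADs and for size applied to both lists. Their counts therefore include 3D borders whose 2D match within 40 kb was filtered out. Only 189 of the 915 were 3D-only in the main definition. The percent inside a 2D TAD was 66.4, 62.9, 29.7 and 29.7 under the first 4 of these settings, so the even split between the classes depends on the definition. In the settings with filtered lists, a 3D border on a filtered-out 2D end counted as outside. Inside minus outside, borders per 100 eligible positions differed by -9.49, -6.59, -8.20 and -7.33 against -10.9. The classes come from the selection itself, so these differences are descriptions. The percent with a coding gene start within 40 kb was 70.2, 57.1, 75.5 and 72.9 under these 4 settings, 50.4 within 20 kb, 81.0 within 80 kb and 84.2 with all annotated genes. Its difference from shared 3D borders, -8.95 points, was -4.77 at the same position, -17.5 within 80 kb and -4.73 with all annotated genes. It turned to 5.08 where TADs meet and to 1.10 for TADs of at least 200 kb. Both settings also count as 3D-only the borders whose 2D match was filtered out, so these values are not for the same set of borders. The part of this in the turn was not tested. For the main 3D-only borders against positions of the same 2D TAD or stretch, chosen after seeing the data, the difference was 7.70. The median 2D TAD around an inside border was 400 kb at the same position, 1160 kb within 80 kb and 1160 kb for TADs of at least 200 kb, against 960 kb.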
